A study of Mus musculus with 4 samples.

Results

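The genes described here were 8 homeobox genes whose products act as cofactors of the Hox proteins: *Meis1*, *Meis2* and *Meis3*, *Pbx2*, *Pbx3* and *Pbx4*, and *Pknox1* and *Pknox2*. They were taken by name from a list, out of 28277 genes listed in any table, of which 12390 were listed for each of the 4 lines. All 8 were listed in every table. The study derived neural stem cell (NSC) lines from 129/Sv mouse epiblast stem cells (EpiSCs) under different Wnt signal inputs and asked how these inputs relate to anteroposterior identity in the early CNS. Every line was grown with the growth factors EGF and FGF2 at 10 ng/ml each. XN4 and XN1 also received 10 µM XAV939, a tankyrase inhibitor that lowers Wnt signaling, CN4 received 2 µM CHIR99021, a GSK3 inhibitor that raises it, and KN1 received neither. Each condition other than XAV939 was thus represented by 1 line, each line by 1 BD Rhapsody whole-transcriptome library, and line, library and culture condition cannot be told apart. In the study's supplement XN1 and KN1 share a derivation experiment and experimenter, and XN4 and CN4 share another. Comparisons of XN1 with CN4 and with XN4 therefore also cross derivation experiments. XN4 and XN1 were cultured with XAV939 of different suppliers, and the study saw crystals form in the culture of XN1 and took its effective concentration to be lower. No test between lines was possible, and all intervals below are nominal 95% intervals of counting error only. Intervals of capture ratios are exact Poisson limits of the observed number of cells. They are wider than 95% intervals where a gene, its partner or the dividing cells make up a large share of a line. An interval that includes 1 there does not show that the ratio is 1. Levels count reads, not molecules, so the intervals of levels are narrower than intervals over molecules would be, while the intervals of single genes and pairs count cells. Ratios summed over pairs count a cell once for every pair it holds, which by itself makes their intervals too narrow.

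Hox proteins select their DNA targets together with TALE homeodomain partners. PBX proteins form a heterodimer or a trimer with a Hox protein on DNA, and MEIS and PKNOX (PREP) proteins bind PBX through a separate interface and help to hold it in the nucleus. In the embryonic hindbrain and spinal cord these partners are required for regional identity, and *Meis* genes are known to respond to retinoic acid. *Meis2* and *Pbx3* are also known from developing neurons.

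The tables of all reads held 8741 cells for XN4, 14452 for XN1 and 18157 for CN4, with medians of 12615, 5981.5 and 9173 reads per cell. For KN1 the normalized table of 3975 cells was used, with a median of 5862 reads per cell. KN1 stood apart from the other lines. Its cells had a median of 833 captured genes, against 2257 to 2824 in the normalized tables of the other lines, and 7.39 reads per captured gene and cell, against 2.14 to 3.90. Genes that span over 100 kb also read higher there: their median log2 ratio was 1.30 for KN1 over XN1 and 1.04 for KN1 over XN4, against -0.44 and -0.41 for genes under 20 kb. Among XN4, XN1 and CN4 the medians of these span classes lay between -0.27 and 0.14. XN4 differed from the other lines in the markers of its labelled cell type. Of 10 neural stem cell markers, 4 were captured in at least 5% of its cells (*Vim* in 84.8%, *Zeb2* in 57.9%, *Msi1* in 17.8% and *Nes* in 8.56%), against 8 to 10 in the other lines. *Sox2*, the defining SoxB factor of neural stem cells, was captured in 0.561% of its cells, against 63.5%, 13.9% and 85.9% for XN1, KN1 and CN4. *Fabp7* was captured in 0 of 8741 XN4 cells, which allows a share of cells with a read of up to 0.0343% (3 counts of the total). The 9 connective tissue and neural crest markers had a median capture of 23.5% in XN4 and at most 1.17% in the other lines, and *Col3a1* was captured in 97.7% of XN4 cells. Of the 9, 7 reached 5% of XN4 cells, and *Sox10* and *Tfap2a* stayed below 1%. Every XN4 value below comes from cells of this kind, and the part of this in the cofactor levels was not tested. Libraries shared 139 to 320 cell barcodes among XN4, XN1 and CN4.

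The members lie at separate places in the genome (GRCm38), with *Meis2* and *Pbx3* both on chromosome 2 and *Pbx2* and *Pknox1* both on chromosome 17. *Meis1* (chromosome 11, 18879817 to 19018985), *Meis2* (chromosome 2, 115863064 to 116065839), *Pbx3* (chromosome 2, 34171457 to 34373142) and *Pknox2* (chromosome 9, 36890982 to 37147407) are long genes on the minus strand, of 139, 203, 202 and 256 kb. *Meis3* (chromosome 7, 16175090 to 16186504), *Pbx2* (chromosome 17, 34591266 to 34597400), *Pbx4* (chromosome 8, 69832491 to 69872292) and *Pknox1* (chromosome 17, 31564734 to 31607693) are on the plus strand, of 11.4, 6.13, 39.8 and 43.0 kb. The longest run of bases that the longest coding transcripts of any pair of members shared was 32, between *Meis1* and *Meis2*. By the GENCODE positions the end of *Gpsm3*, the 5′ neighbour, overlaps the start of *Pbx2* by 489 bases on the same strand. The RefSeq start region of *Pbx2* (34592009 to 34592308) lies past the end of *Gpsm3* (34591754). *Gpsm3* was captured in 8.40% of XN4 cells, 1.07% of XN1 cells and 0.325% of CN4 cells, so some *Pbx2* and *Gpsm3* reads may not be separable in XN4. The antisense genes within *Meis1*, *Pbx3* and *Pknox2* were captured in at most 0.709% of cells in XN4, XN1 and CN4.

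RefSeq start regions (250 bases before to 50 after the start, GRCm38.p6) were given for 5 members. These starts need not match the GENCODE positions above, and the region of *Meis2* lies wholly inside its GENCODE span. The regions of *Meis1* and *Meis2* are shown because these genes differed together between XN1 and CN4. Capitals mark CpG dinucleotides, of which *Meis1* held 15 and *Meis2* 13, against a median of 7 over 32851 start regions. The *Meis1* region is chr11:19018920-19019219 and the *Meis2* region chr2:116064570-116064869, both read on the minus strand, 5′ to 3′.
Meis1: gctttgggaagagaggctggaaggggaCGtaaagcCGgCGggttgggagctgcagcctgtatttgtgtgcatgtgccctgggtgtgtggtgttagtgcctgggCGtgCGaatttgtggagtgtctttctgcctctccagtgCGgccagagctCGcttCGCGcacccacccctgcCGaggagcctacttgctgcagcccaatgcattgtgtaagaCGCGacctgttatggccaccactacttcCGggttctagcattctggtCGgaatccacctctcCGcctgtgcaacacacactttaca
Meis2: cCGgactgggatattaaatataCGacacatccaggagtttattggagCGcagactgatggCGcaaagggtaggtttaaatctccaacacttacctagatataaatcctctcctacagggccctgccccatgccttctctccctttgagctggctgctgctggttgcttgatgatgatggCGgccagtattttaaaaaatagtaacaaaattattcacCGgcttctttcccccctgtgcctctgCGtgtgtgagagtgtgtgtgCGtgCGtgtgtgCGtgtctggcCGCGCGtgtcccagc
Neither region held the MEIS and PKNOX core TGACAG, the PBX and Hox composite TGATTNAT or the composite TGATTGAC on either strand, and neither did the regions of *Meis3*, *Pbx2* and *Pbx4*. The 2 composites overlap in their letters and differ at the last base where N is G. Over all start regions 19.2% held TGACAG, 3.22% TGATTNAT and 0.770% TGATTGAC.

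*Meis1*, a factor of limb, blood and hindbrain patterning, had reads in 55.4% (54.3 to 56.4) of the cells of XN4, against 15.8% (15.2 to 16.4) for XN1, 31.0% (29.5 to 32.4) for KN1 and 46.3% (45.5 to 47.0) for CN4. Its pooled level was 1.90, 0.422, 3.99 and 1.33 reads per 10000 in XN4, XN1, KN1 and CN4. XN1 was lowest on both measures. KN1 was highest by level but stood behind XN4 and CN4 by share of cells, with 8.94 reads per capturing cell against 3.80 in XN4 and 1.40 in XN1. XN1 stayed low in its deepest cells: in the tenth of XN1 cells with the most reads (median 11747 reads) *Meis1* was captured in 25.0% of cells, and in the tenth of CN4 cells with the fewest (median 4052 reads) in 29.5%.

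*Meis2*, its paralog, had reads in 8.52% (7.95 to 9.13) of XN4, 11.5% (11.0 to 12.1) of XN1, 39.4% (37.8 to 40.9) of KN1 and 45.0% (44.3 to 45.8) of CN4 cells. The 2 lines grown with XAV939 were low and the other 2 high. The share of all genes that split the lines in this way was not counted. The levels were 0.279, 0.283, 6.02 and 1.26 reads per 10000, and the intervals of XN4 (0.263 to 0.295) and XN1 (0.260 to 0.308) overlapped. When cells were drawn down to 3200 reads each, which left out 290 to 776 shallower cells per line, *Meis2* was captured in 5.35%, 7.52%, 36.9% and 27.9% of cells, so the 2 low lines stayed low and KN1 passed CN4. The remaining paralog *Meis3* was captured in 13.1% of XN4 cells (12.4 to 13.8) and in 3.80%, 3.32% and 3.62% of XN1, KN1 and CN4 cells. The intervals of the last 3 lines overlapped. Its levels were 0.215, 0.0872, 0.171 and 0.0601 reads per 10000, so KN1 stood close to XN4 by level. By share of cells the place of KN1 changed with the setting. CN4 was last with cells drawn down to 3200 reads, and KN1 was first with cells drawn down to its median gene number. In the latter setting the other lines kept 1107 to 1235 reads per cell, while KN1 kept all of its reads.

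*Pbx2*, a broadly transcribed member of the family, had reads in 49.9% (48.8 to 50.9) of XN4, 18.8% (18.2 to 19.5) of XN1, 8.30% (7.46 to 9.20) of KN1 and 26.1% (25.5 to 26.7) of CN4 cells. Its levels of 0.513, 0.596 and 0.523 reads per 10000 in XN1, KN1 and CN4 were near each other, and XN4 stood above them at 1.37. For *Pbx3* the shares were 30.5% (29.5 to 31.5), 14.2% (13.6 to 14.8), 23.2% (21.9 to 24.6) and 54.1% (53.4 to 54.9), in the same order of lines, with levels of 0.846, 0.376, 2.71 and 1.57 reads per 10000. CN4 was highest by share of cells, KN1 by level, and XN1 was lowest on both. *Pbx4*, which is best known from the testis, was captured in few cells: 1.97% (1.69 to 2.28) for XN4, 4.07% (3.75 to 4.40) for XN1, 6.04% (5.32 to 6.82) for KN1 and 4.62% (4.31 to 4.93) for CN4. Its level in KN1, 0.556 reads per 10000, stood above those of XN4, XN1 and CN4 at 0.0361, 0.102 and 0.0719.

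*Pknox1*, the widely expressed PREP gene, had reads in 14.6% (13.8 to 15.3) of XN4, 15.3% (14.8 to 15.9) of XN1, 5.41% (4.73 to 6.16) of KN1 and 31.7% (31.1 to 32.4) of CN4 cells. The intervals of XN4 and XN1 overlapped, and CN4 was highest both by share and by level (0.282, 0.415, 0.385 and 0.702 reads per 10000). *Pknox2*, its paralog, had reads in 48.2% (47.2 to 49.3) of the cells of XN4, and in 4.89% (4.54 to 5.25), 9.43% (8.54 to 10.4) and 12.2% (11.7 to 12.6) of those of XN1, KN1 and CN4. XN4 was 3.97-fold above the next line, CN4, in the share of cells. With cells drawn down to the median gene number of KN1, KN1 came next and XN4 stood 1.71-fold above it. The levels were 1.39, 0.132, 0.928 and 0.226 reads per 10000, so KN1 came near XN4 on that measure. By share of cells, XN4 was highest for 4 of the 8 members, CN4 for 3, KN1 for 1 and XN1 for 0. By level the counts were 3, 1, 4 and 0.

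**Figure D1:**
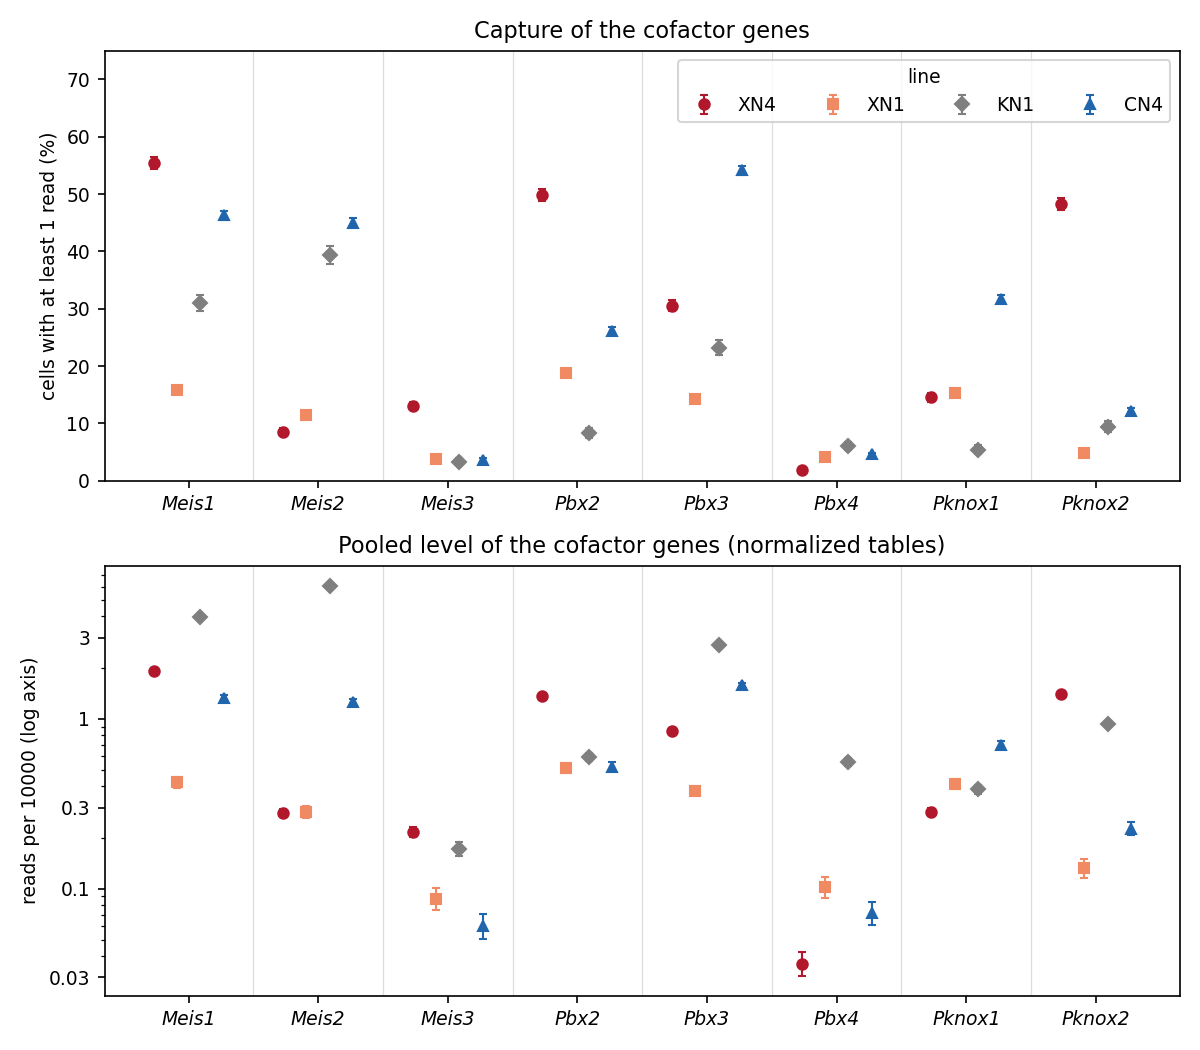
Capture and level of the 8 cofactor genes in the 4 NSC lines. The upper panel gives the share of cells with at least 1 read in percent, and the lower panel the pooled reads per 10000 on a log axis, each point 1 line with its 95% interval of counting error. *Meis2* was at 8.52% and 11.5% in XN4 and XN1 against 39.4% and 45.0% in KN1 and CN4, and *Pknox2* was at 48.2% in XN4 against at most 12.2% elsewhere.

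The comparison of XN1 with CN4, the lines with neural markers under XAV939, whose effective dose was uncertain, and under CHIR99021, was set against all genes captured in at least 1% of the cells of either line. In CN4, *Meis2* was 4.45-fold, *Pbx3* 4.18-fold and *Meis1* 3.15-fold higher than in XN1. These log2 ratios of 2.15, 2.06 and 1.66 stood at the percentiles 98.0, 97.9 and 96.7 of 12282 genes. Long genes as a class had a median log2 ratio of only 0.11 between these lines, and among them the same members stood at the percentiles 94.8, 94.6 and 91.9. The other 5 members stayed within 2-fold. *Pknox2* (log2 ratio 0.78), *Pknox1* (0.76) and *Pbx2* (0.03) were level or higher in CN4, and *Pbx4* (-0.50) and *Meis3* (-0.54) lower. Thus 3 of 8 members passed 2-fold, all higher in CN4, and 17.6% of all genes did so in either direction. The members' median log2 ratio was 0.77, and that of all genes 0.10. Dividing cells, defined below, made up 28.0% of XN1 and 65.5% of CN4 cells. *Pbx3* was at 0.576 reads per 10000 in dividing XN1 cells and 1.76 in dividing CN4 cells. In the other cells it was at 0.285 and 1.20. The part of dividing cells in the pooled ratios was not tested.

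Between the 2 lines under XAV939, XN1 and XN4, 6 of 8 members passed 2-fold, where 31.2% of 12495 genes did. Lower in XN1 were *Pknox2* (10.6-fold), *Meis1* (4.49-fold), *Pbx2* (2.67-fold), *Meis3* (2.47-fold) and *Pbx3* (2.25-fold), and *Pbx4* was 2.82-fold higher. *Meis2* did not separate these lines by level (log2 ratio 0.02), though its share of cells was higher in XN1 as given above, and *Pknox1* was within 2-fold (0.56). The median log2 ratio was -1.24 for the members and -0.12 for all genes. Against CN4, XN4 was again higher for *Pknox2* (6.17-fold), *Meis3* (3.57-fold) and *Pbx2* (2.62-fold), and lower for *Meis2* (4.52-fold) and *Pknox1* (2.49-fold). These 5 of 8 members compare with 33.1% of 12717 genes, and the members' median log2 ratio of CN4 over XN4 was 0.19 against -0.03. *Pbx4*, at a log2 ratio of 0.99, lay just inside the threshold. The comparisons with XN4 share its library and its connective tissue markers.

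KN1 was compared in the same way, with the class of genes of like span beside the values. Against XN1, 5 of 8 members passed 2-fold in KN1, all higher, and 46.9% of 11872 genes passed in either direction. *Meis2* was 21.3-fold, *Meis1* 9.45-fold, *Pbx3* 7.19-fold, *Pknox2* 7.04-fold and *Pbx4* 5.47-fold higher. The first 4 are long genes, and their log2 ratios of 4.41, 3.24, 2.85 and 2.82 exceeded the median of their span class by 3.11, 1.94, 1.54 and 1.51. *Pbx4* spans 39.8 kb and exceeded its class by 2.44, at the percentile 96.1. Against XN4, 5 of 8 members passed 2-fold (43.9% of 12193 genes): *Meis2* (21.6-fold), *Pbx4* (15.4-fold), *Pbx3* (3.20-fold) and *Meis1* (2.10-fold) higher in KN1 and *Pbx2* (2.30-fold) lower. Set against the medians of their span classes, *Pbx4* stood 4.01, *Meis2* 3.39 and *Pbx3* 0.64 above, *Meis1* only 0.03 above, and *Pbx2* at -0.79. By the share of cells drawn down to 3200 reads the log2 ratio of *Meis1* turned to -0.36. Against KN1, CN4 was lower for *Pbx4* (7.73-fold), *Meis2* (4.77-fold), *Pknox2* (4.11-fold), *Meis1* (log2 ratio -1.58) and *Meis3* (2.84-fold), 5 of 8 members where 42.1% of 12126 genes passed. Relative to their span classes the log2 ratios of CN4 over KN1 were -3.05 for *Pbx4*, -1.98 for *Meis3*, -1.04 for *Meis2*, -0.82 for *Pknox2* and -0.37 for *Meis1*. *Pbx3*, within 2-fold, stood 0.43 above its class. By the share of cells drawn down to 3200 reads *Meis1* turned to 0.0338 and 3 members passed 2-fold. The members' median log2 ratios were 2.63 (KN1 over XN1), 0.76 (KN1 over XN4) and -1.55 (CN4 over KN1), and those of all genes -0.02, -0.06 and 0.09. The part of the span in the KN1 levels was not tested beyond these values.

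**Figure D2:**
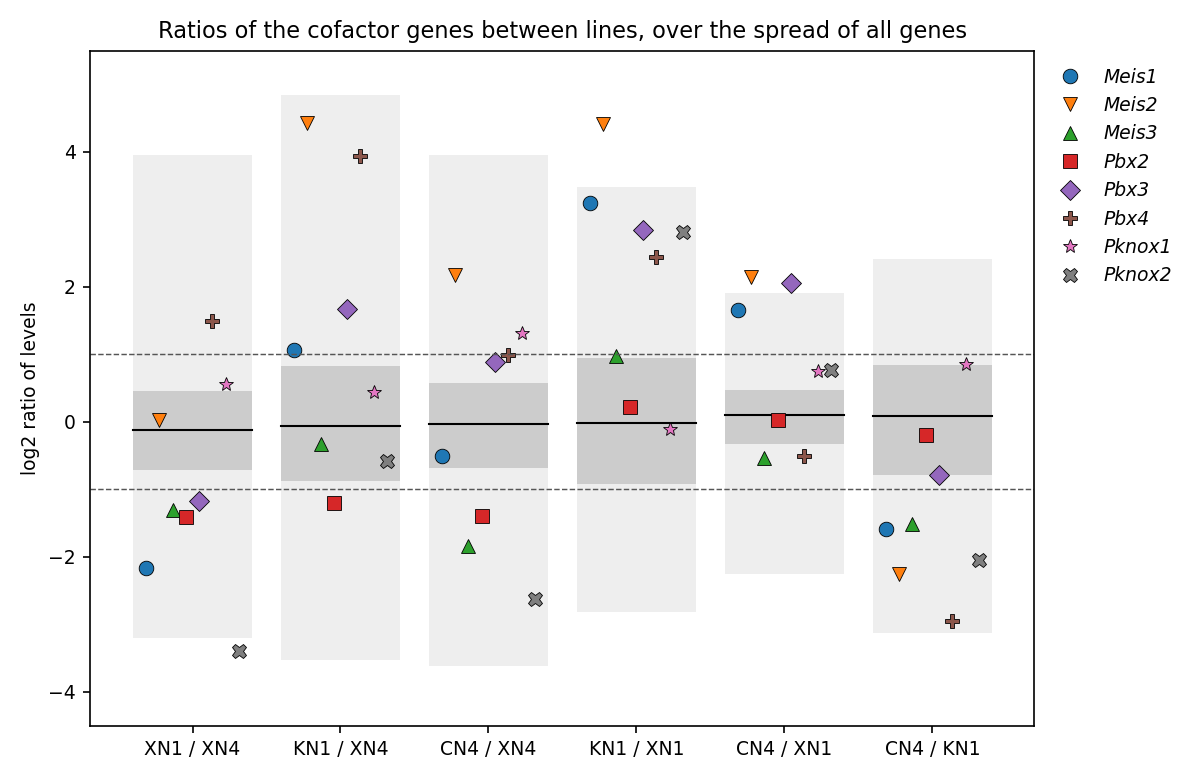
Log2 ratios of the pooled levels of the 8 cofactor genes for each pair of lines, as symbols, over all genes captured in at least 1% of the cells of either line. Dark bars hold the middle 50% and light bars the middle 95% of all genes, black lines are their medians and dashed lines mark 2-fold. *Meis2* and *Pbx3* lay above the light bar for CN4 over XN1, *Meis2* also for KN1 over XN1, and *Pknox2* below it for XN1 over XN4.

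The share of cells with reads of several partners also differed between lines. Any *Meis* gene was captured in 63.6% of XN4, 27.9% of XN1, 56.9% of KN1 and 70.1% of CN4 cells, any of the 3 *Pbx* genes in 62.6%, 32.6%, 32.6% and 65.7%, and any *Pknox* gene in 54.6%, 19.4%, 14.2% and 39.3%. Cells with both a *Meis* and a *Pbx* read made up 43.5% (42.5 to 44.6), 9.96% (9.47 to 10.5), 21.3% (20.0 to 22.6) and 48.4% (47.7 to 49.1). No member was captured in 10.5%, 41.0%, 29.3% and 9.09% of cells, and a cell held on average 2.22, 0.885, 1.26 and 2.24 of the 8. With cells drawn down to 3200 reads the means were 1.31, 0.616, 1.14 and 1.32, and with cells of XN4, XN1 and CN4 drawn down to the gene number of KN1 they were 0.679, 0.253, 1.26 and 0.573. XN1 had the fewest members per cell on each of these scales, and the place of KN1 changed from below XN4 and CN4 to above them at a like number of genes. At that gene number XN4, XN1 and CN4 kept 1235, 1144 and 1107 reads per cell. KN1 kept all of its reads, with a median of 5862, so the lines were not alike in depth there.

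Within a line, capture of 2 members in the same cell was set against the number expected from cells of like read number (20 strata). Most pairs had an interval that included 1. Of 28 member pairs, 3 had an interval beside 1 for XN4, 2 for XN1, 0 for KN1 and 6 for CN4. Among all pairs of a member with a gene captured in at least 5% of cells, such intervals made up 5.29% (XN4), 5.11% (XN1), 1.7% (KN1) and 5.79% (CN4). The counts of XN4, XN1 and CN4 stood above the background share, each by few pairs, and are read no further. Summed over the 28 pairs XN4 gave a ratio of 1.02 (1.01 to 1.03), XN1 1.03 (1.00 to 1.06), KN1 1.07 (1.04 to 1.11) and CN4 1.02 (1.01 to 1.03). Among pairs with an interval beside 1, the farthest from it was *Meis2* with *Pbx3* in XN4, seen in 385 cells where 262 were expected (1.47, 1.33 to 1.63). In CN4 the same pair was seen in 4906 cells (1.05, 1.02 to 1.08), and in XN1 and KN1 its interval included 1. *Pbx3* with *Pknox1* was above 1 in XN1 (1.17, 1.06 to 1.29) and in CN4 (1.06, 1.02 to 1.09). *Meis2* with *Pknox2* was below 1 in XN4 (0.882, 0.791 to 0.981).

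**Figure D3:**
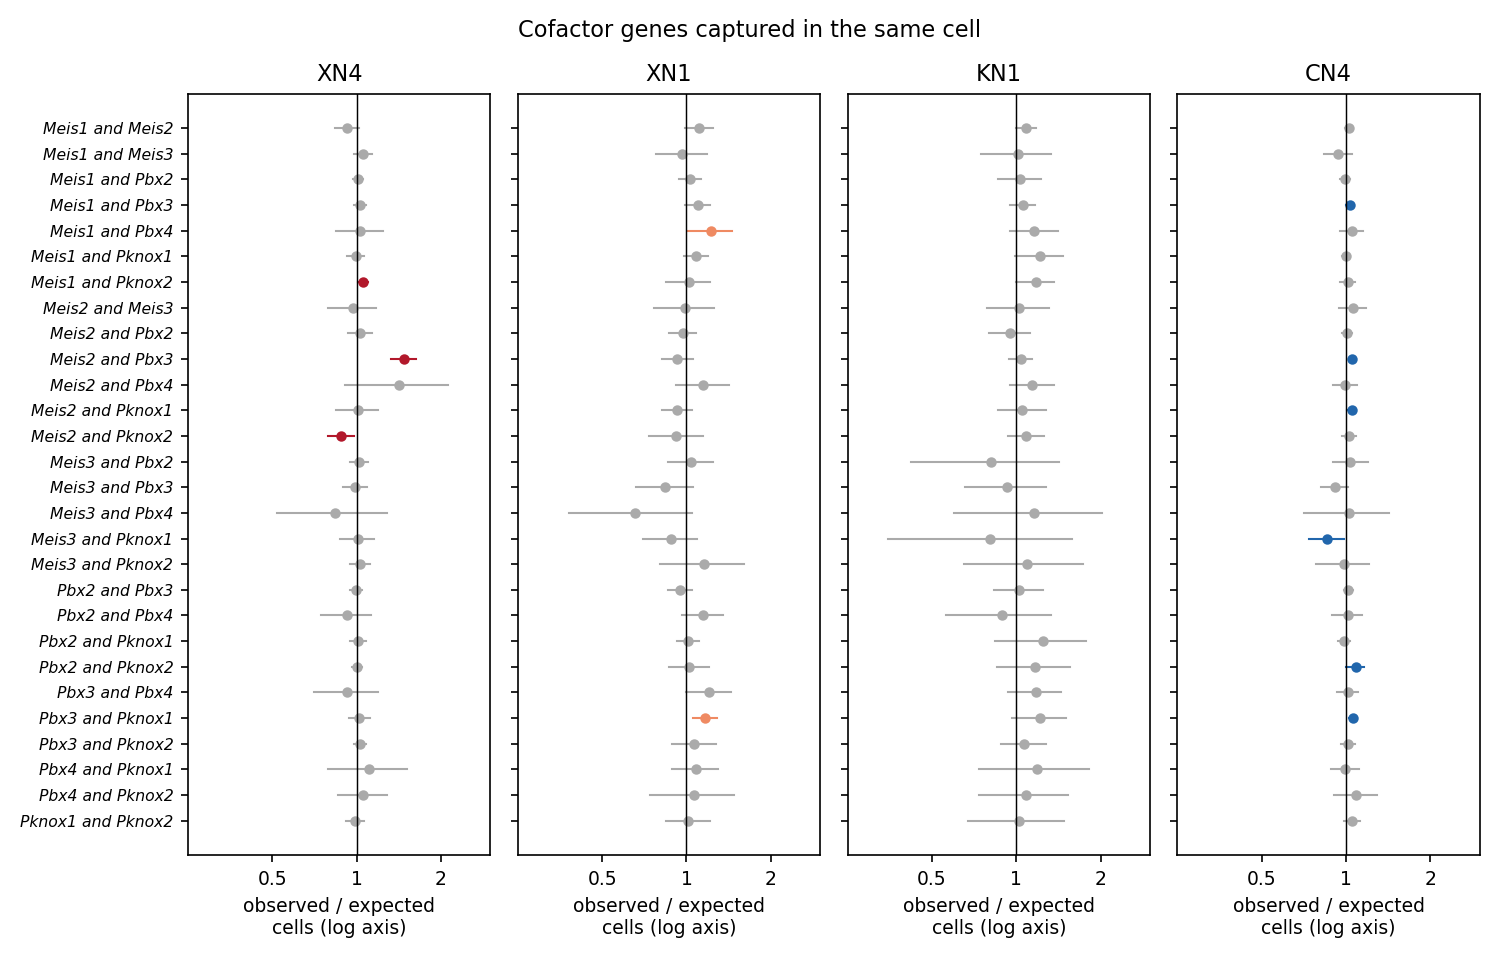
Cells that captured both genes of a pair, divided by the number expected within 20 strata of total reads, for the 28 member pairs in each line (log axis). Lines give 95% intervals of counting error, and coloured points have an interval beside 1. *Meis2* with *Pbx3* in XN4, at 1.47, was the farthest coloured point from 1.

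Hox genes, the binding partners, were few in the lines under XAV939. Of 39 Hox genes, 1 was captured in at least 5% of XN4 cells (*Hoxd8*, 18.8%), 3 in XN1 (*Hoxa3*, *Hoxa4* and *Hoxa5*), 8 in KN1 and 20 in CN4, with summed levels of 0.447, 1.65, 9.74 and 22.4 reads per 10000. The share of cells with *Meis2* followed this order of lines, but by level and by the share of cells drawn down to 3200 reads KN1 stood above CN4. XN4 had the lowest summed Hox level and the highest shares of cells with *Meis1*, *Pbx2* and *Pknox2*. For *Meis1*, KN1 stood above XN4 by level and with cells drawn down to the median gene number of KN1. The *Hoxd8* level of XN4, 0.396 reads per 10000, stood near the 0.452 of CN4. In cells of like read number the members and the Hox genes were captured together at summed ratios of 1.02 (0.993 to 1.05; XN4), 1.03 (1.00 to 1.05; XN1), 1.01 (0.982 to 1.03; KN1) and 1.00 (1.00 to 1.01; CN4). Of 8, 24, 64 and 160 single pairs, 1, 1, 0 and 12 had an interval beside 1, too few to set apart from the background shares given above. In CN4, 5 of the 12 concerned *Meis2*. It was captured less often than expected with *Hoxc9* (0.896, 0.839 to 0.955), *Hoxc8* (0.950, 0.920 to 0.980), *Hoxb9* (0.959, 0.933 to 0.984) and *Hoxb6* (0.966, 0.938 to 0.995), and slightly more often with *Hoxc4* (1.06, 1.00 to 1.11). For the other Hox genes captured in at least 5% of CN4 cells, *Hoxa7*, *Hoxa9*, *Hoxb7* and *Hoxb8* among them, the interval with *Meis2* included 1. Over all genes, 9.69% of the pairs of *Meis2* in CN4 had an interval beside 1. In XN4 *Meis2* was captured with *Hoxd8* in 224 cells where 166 were expected (1.35, 1.18 to 1.54).

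The cells that captured *Meis2* differed from their neighbours in further genes. Each member was paired with every gene captured in at least 5% of the cells of a line, and the 5 genes with the highest lower limit and the 5 with the lowest upper limit of the ratio were kept. This rule was chosen after values were seen, and the genes it names are a description. In XN4, *Meis2* had 134 of 10133 genes at a ratio of 1.5 or more. *Pbx4*, with 172 capturing cells, had 69 there, and *Meis3* in KN1, with 132, also had 134 of 5586, but only 1.48% and 1.59% of their pairs had an interval beside 1. For *Meis2* in XN4 18.4% of the pairs did, where the other members of this line had 0.0592% to 6.65%. Such shares also depend on how many cells captured a member and on the width of its Poisson limits, and this part was not tested. By the lower limit, at the top stood *Epha5*, an ephrin receptor of axon guidance (4.87, 4.36 to 5.42), *Basp1*, a growth cone protein (4.38, 3.92 to 4.87), the homeobox gene *Shox2* (3.56, 3.08 to 4.08), the imprinted gene *Ndn* (3.18, 2.87 to 3.52) and the receptor phosphatase *Ptprd* (3.16, 2.84 to 3.51). *Epha5* was captured in 8.51% of XN4 cells, and 336 of 745 cells with *Meis2* had it. *Epha5* was also first by the lower limit for *Pbx3* in XN4 (1.53, 1.38 to 1.69), with *Meis2* next. By the upper limit, lowest with *Meis2* were the transporter gene *Slc16a5* (0.194, 0.152 to 0.244), *Gm35419* (0.197) and *Foxr2* (0.220, 0.167 to 0.285). Of the 7 connective tissue markers captured in at least 5% of XN4 cells, 2 had an interval above 1 with *Meis2*. *Col3a1* (0.995), *Dcn* (1.01) and *Prrx1* (1.00) were at 1, and *Lum* (1.61, 1.45 to 1.78) and *Twist1* (1.14, 1.00 to 1.30) were above it. *Col3a1*, *Dcn* and *Prrx1* were captured in 97.7%, 87.5% and 86.7% of all XN4 cells, so their ratios could rise little above 1. *Pdgfra*, of the list of oligodendrocyte precursor markers, was below (0.613, 0.543 to 0.690). Of the 4 neural stem cell markers captured in at least 5% of XN4 cells, *Nes* was above 1 with *Meis2* (1.27, 1.03 to 1.54), *Zeb2* (0.851, 0.770 to 0.939) and *Msi1* (0.741, 0.612 to 0.890) were below, and *Vim* was at 1.02 (0.942 to 1.10). *Vim*, captured in 84.8% of all XN4 cells, likewise had little room above 1.

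In CN4 the genes with the highest lower limit with *Meis2* were the Notch ligand *Dll1* (1.31, 1.24 to 1.39), its paralog *Dll3* (1.28, 1.20 to 1.37), *Amotl2* (1.24, 1.17 to 1.31), the Wnt target *Lgr5* (1.21, 1.16 to 1.26) and *B3gat2* (1.23, 1.15 to 1.31). The Notch target *Hes5* (1.15, 1.10 to 1.19), *Sox3* (1.10, 1.07 to 1.14) and *Pax6* (1.08, 1.04 to 1.13) of the neural stem cell list were also above 1, and the intervals of the other genes of that list, *Sox2* and *Nes* among them, included 1. By the upper limit, lowest were *Fam167a* (0.764, 0.710 to 0.822), *Pltp* (0.808), *Crispld2* (0.791), *Bhlhe22* (0.788) and *Enpp1* (0.806). None of 9976 genes reached 1.5 with *Meis2* in CN4. In CN4 *Meis1* had its highest lower limit with the ephrin receptor gene *Epha4* (1.13, 1.08 to 1.18), and in XN1 and KN1 no gene reached 1.5 with *Meis1* or *Meis2*.

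**Figure D4:**
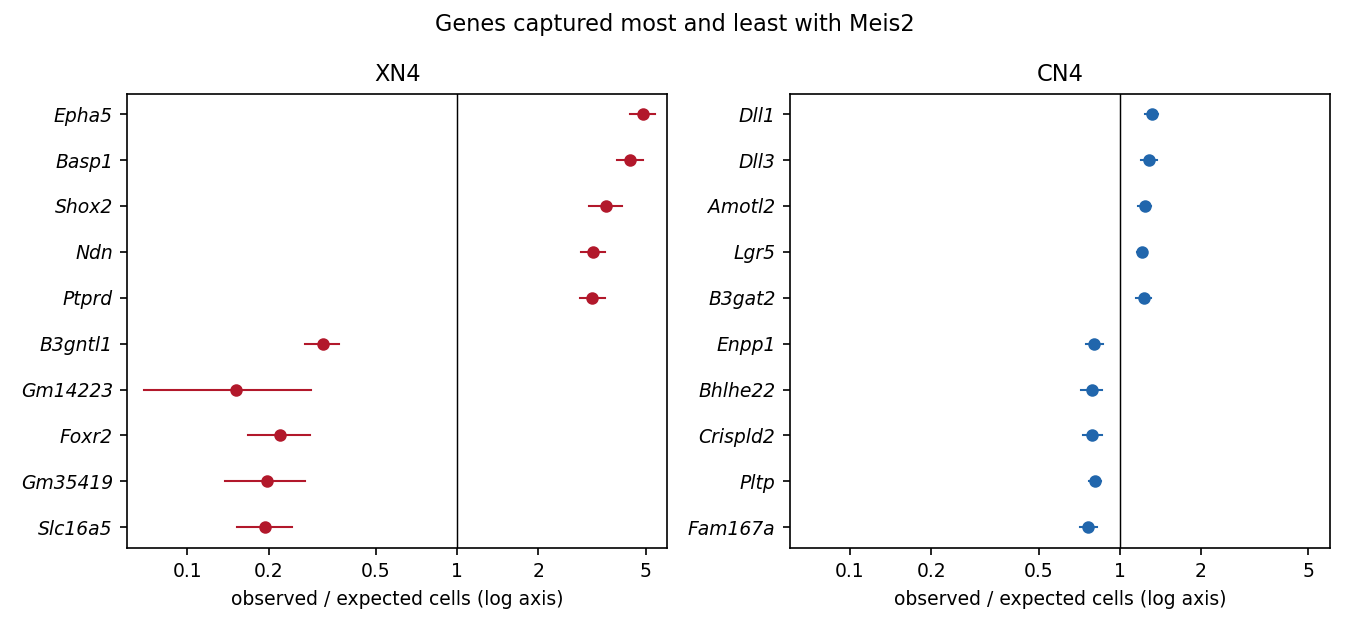
Genes with the highest lower limit (upper 5) and the lowest upper limit (lower 5) of the ratio with *Meis2* in XN4 and in CN4, as the ratio of observed to expected cells within 20 strata of total reads on a log axis, with 95% intervals of counting error. Ratios reached 4.87 (*Epha5*) and went down to 0.151 (*Gm14223*) in XN4, and ranged from 0.764 to 1.31 in CN4.

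Dividing cells, taken as those with reads of at least 2 of *Hmgb2*, *Mki67* and *Top2a*, made up 28.2% of XN4, 28.0% of XN1, 26.8% of KN1 and 65.5% of CN4 cells. They held more reads than the others, so capture was again compared within strata of read number. *Pbx3* was captured more often in dividing cells than expected in XN4 (1.12, 1.06 to 1.19), XN1 (1.44, 1.35 to 1.54) and CN4 (1.07, 1.05 to 1.10), and its interval in KN1 (1.10, 0.987 to 1.21) included 1. In XN1, *Pbx3* reads were found in 23.8% of dividing and 10.4% of other cells. *Pknox1* was likewise above 1 in XN4 (1.09, 1.01 to 1.18), XN1 (1.24, 1.16 to 1.33) and CN4 (1.10, 1.07 to 1.13). Its interval in KN1 (1.08, 0.870 to 1.33) included 1. *Pbx4* was above 1 in XN1 (1.30, 1.14 to 1.47) and KN1 (1.36, 1.13 to 1.62), and its interval in XN4 (0.962, 0.738 to 1.23) included 1. *Meis1* was above 1 in XN1 (1.13, 1.06 to 1.22). *Meis3* lay below 1 in XN4 (0.862, 0.771 to 0.960), XN1 (0.735, 0.613 to 0.873) and CN4 (0.829, 0.748 to 0.918), as did *Meis2* in XN4 (0.763, 0.660 to 0.879).

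These counts need the background of each line. Of the 8 members, 4 (XN4), 5 (XN1), 1 (KN1) and 3 (CN4) had an interval beside 1, as did 34.3%, 56.6%, 6.23% and 33.7% of all genes captured in at least 5% of cells. Among the members that reach this floor themselves, the counts were 4 of 7, 3 of 5, 1 of 7 and 2 of 6. Counts over so few members are read no further. By size, *Pbx3* stood at the percentiles 90.3, 95.9, 86.3 and 92.3 of these genes in XN4, XN1, KN1 and CN4, and *Pknox1* at 86.5, 91.1, 81.8 and 94.7. *Meis2* in XN4 stood at the percentile 1.34. By pairing with single genes, ranked by the lower limit, *Pbx3* had first the mitotic kinase gene *Aurkb* in XN1 (1.69, 1.53 to 1.85) and the helicase gene *Pif1* in CN4 (1.16, 1.10 to 1.22). *Pknox1* had first the kinetochore gene *Ndc80* in XN4 (1.35, 1.20 to 1.51), the kinesin gene *Kif14* in XN1 (1.57, 1.37 to 1.79) and the mitotic kinase gene *Aurka* in CN4 (1.25, 1.20 to 1.32). For *Pbx4* these were *Lockd* (1.89, 1.49 to 2.37) and then the mitotic kinase gene *Plk1* (1.75, 1.48 to 2.05) in XN1. In the remaining lines, first for *Pbx3* were *Epha5* in XN4 and *Pif1* in KN1, and for *Pknox1* *Arl6ip4* in KN1. For *Pbx4*, *K230010J24Rik* was first in XN4, *Gen1* in KN1 and *Arhgef39* in CN4. *Pbx2* had 6 of 10133 genes beside 1 in XN4. It was captured in a large share of these cells, where the Poisson limits are too wide to read this count as a trait of the gene.

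**Figure D5:**
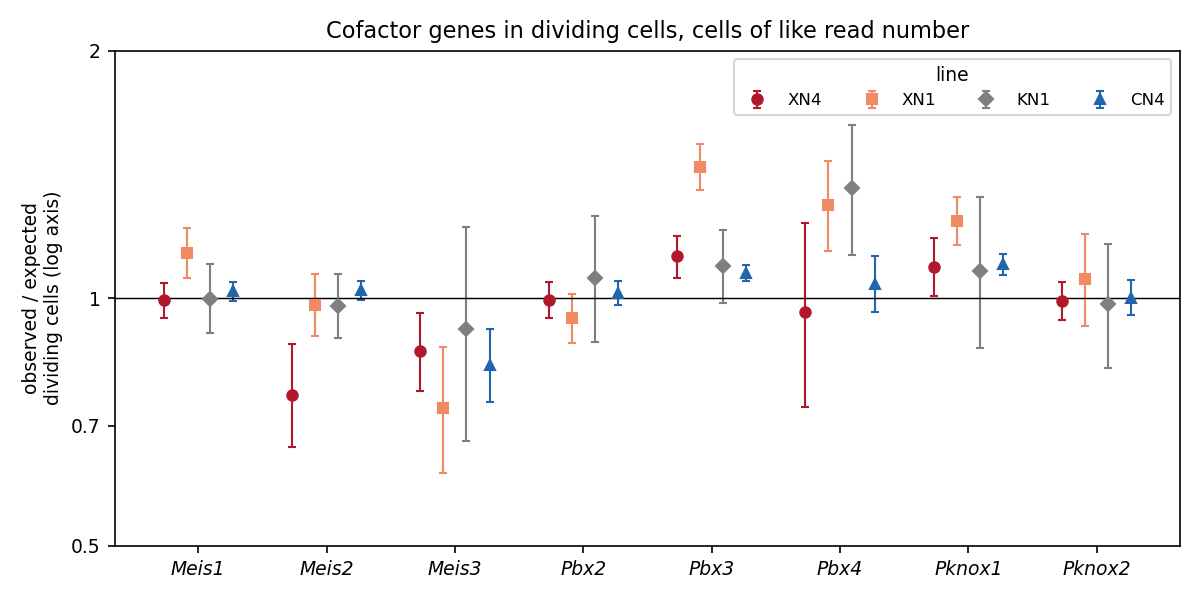
Capture of each cofactor gene in dividing cells, as the ratio of observed to expected cells within 20 strata of total reads (log axis), with 95% intervals of counting error, for the 4 lines. *Pbx3* lay between 1.07 and 1.44 and *Meis3* between 0.735 and 0.916.

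Other genes of the same system were read from fixed lists. Of 8 retinoic acid genes, which include the receptors and the enzymes that make and break the ligand, 3 could be compared between XN4 and XN1, and all 3 passed 2-fold lower in XN1: *Rarg* (log2 ratio -2.36), *Rarb* (-2.25) and *Rara* (-2.17), where 31.2% of all genes passed. By level these receptors were highest in XN4, as were *Meis3*, *Pbx2* and *Pknox2*. Of the other members, *Meis1* was highest in KN1, and *Meis2*, *Pbx4* and *Pknox1* were lowest in XN4. Within XN4, *Rarb* was captured with *Meis1* (1.04, 1.00 to 1.07) and *Pknox2* (1.06, 1.02 to 1.09) at ratios little above 1. *Crabp1*, a retinoic acid binding protein gene, was captured less often than expected with *Meis2* (0.463, 0.303 to 0.679) and more often with *Pknox1* (1.19, 1.01 to 1.39). The intervals of the other pairs of a member with these 4 genes in XN4 included 1. Between XN1 and CN4, 1 of 3 passed 2-fold higher in CN4 (*Rara*, 0.105 and 0.298 reads per 10000) and 1 lower (*Rarg*, log2 ratio -1.16), where 17.6% of all genes passed. Of a list of 10 genes, other TALE genes and the PBX-binding protein gene *Pbxip1*, 7 were compared between XN1 and CN4. *Irx1* was higher in CN4 (1.83), *Irx3* (-1.10) and *Pbxip1* (-1.43) lower, 3 of 7 against the same 17.6%, and the list's median was -0.17 against 0.10 for all genes. *Pbxip1*, whose product binds PBX proteins, had levels of 0.962, 3.62, 1.43 and 1.35 reads per 10000 in XN4, XN1, KN1 and CN4, and so was highest in the line where *Meis1* and *Pbx3* were lowest.

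The members did not share a single pattern over the lines. As the distance of log2 levels centred on each gene's mean over the 4 lines, *Meis3* and *Pbx2* (0.95) and *Meis1* and *Pbx3* (1.04) were the nearest pairs of members, and *Meis2* and *Pbx2* (4.27) the farthest. Among 10454 genes the nearest were *Prtg* for *Meis1* (0.32), *Prkg1* for *Meis2* (0.39), *Phldb2* for *Meis3* (0.07), *Zc3h11a* for *Pbx2* (0.05), *Ticrr* for *Pbx3* (0.34), *Pde1c* for *Pbx4* (0.29), *Fnbp1l* for *Pknox1* (0.10) and *Slc9a5* for *Pknox2* (0.18). With 4 points per gene such likeness is a description of these libraries.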

How the data were processed

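The authors made single-cell libraries with the BD Rhapsody WTA kit and, per the file headers, counted reads with the BD pipeline (version 1.12.1; GRCm38 and GENCODE M19) for XN4, XN1 and CN4, with intronic reads included. The deposited counts are reads per cell and gene, not molecules. Normalized tables of a random subset of cells, made with Seurat 4.3.0, were deposited as the natural log of 1 plus reads per 10000, without ribosomal protein and mitochondrial genes. They were converted back to reads, and 100% of values came out whole within 0.01. The study's methods name the same pipeline and genome for all lines. The version and the intron setting for KN1 are not given in the sources used here.

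Capture is at least 1 read in a cell, with exact Clopper-Pearson 95% intervals. Levels are pooled reads per 10000 of the normalized tables, with exact Poisson intervals. Ratios between lines have no test, since each line is 1 library and cells are not replicates. Capture ratios divide observed cells by those expected within 20 strata of total reads. Their intervals are exact Poisson 95% limits of the observed number of cells, with the expected number taken as fixed. The functions were tested on simulated data. The members and gene lists were chosen with earlier results of these data known. Named beside the members were list genes past 2-fold, the nearest gene by distance, and genes of the pairing rule given above. Free RNA and doublets were not separated. Positions are from GENCODE M21 and start regions from RefSeq (GRCm38.p6). Analyses used Python 3.11.15 with NumPy 2.4.6, SciPy 1.17.1 and pandas 2.3.3.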

Additional observations from a re-analysis of the deposited data

How the results depend on the processing

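Each line is 1 library, so no replicate could be left out, and the read depth limits statements on rare genes such as *Pbx4*. No paired analysis was possible because no result comes from a test between samples. Of the capture shares of single members in single lines under the alternatives, 120 moved outside their counting interval and 40 did not, and of the levels 69 and 19. Of single pairs, 103 moved and 2 turned, and of log2 ratios 15 and 2. When cells were thinned to the gene number of KN1, a setting chosen after seeing the data like the span classes and the pairing of members with every gene, 2, 5 and 1 members were highest in XN4, KN1 and CN4. KN1 held 2 under at least 2 reads and under thinning to 3200 reads. By the share of thinned cells, the log2 ratio of *Meis1* turned to -0.36 for KN1 over XN4 and to 0.0338 for CN4 over KN1, and 3 members passed 2-fold between CN4 and KN1. Requiring 2 reads for capture moved the summed ratios of pairs in XN1 to 1.18 for all pairs, 1.26 for *Meis* with *Pbx*, 1.27 for *Pknox* with *Pbx* and 0.901 for *Meis* with *Pknox*. In CN4 it moved them to 1.08, 1.06, 1.09 and 1.04, and the members with Hox genes to 0.998 (1.01 with 5 strata). It turned *Meis1* with *Hoxa4* in XN1 to 0.651 and *Pbx4* with *Hoxc4* in CN4 to 0.763. The summed ratio in dividing cells became 1.09 in XN1 with strata of captured genes, 1.18 there with all 3 dividing genes and 1.07 in CN4. Of the 24 genes nearest in pattern, 13 were shared when levels were averaged over cells. The cause of these changes was not tested. All 320 member and gene pairs kept by the pairing rule stayed inside their intervals with strata of captured genes.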
